A study of Mus musculus with 12 samples.

Results

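The albumin gene family of the mouse, that is *Alb*, *Afp*, *Afm*, and *Gc*, was followed in 6 liver tumors and in 6 samples of non-tumoral liver from tumor-bearing mice. Each liver was paired with 1 tumor. The liver paired with T-HCC662 was assigned by elimination, because the number in its label matches no animal of the study. The 4 genes were chosen by symbol from the 24421 genes counted in each library, and all 4 were found. *Alb* was selected on these data, because it was the most counted gene in the tumors without a *Ctnnb1* mutation, so every comparison of *Alb* that includes those tumors is given as a description and is not tested. Poly(A) RNA was sequenced from bulk tissue of aged mice on a standard diet. The p21+/Tert mice, which express *Tert* (the catalytic subunit of telomerase) from the promoter of *Cdkn1a*, the p21 gene, contributed 4 livers and 4 tumors (T-HCA992, T-HCC941, T-HCC663, and T-HCC662). The p21+/TertCi mice, in which the same promoter drives a catalytically inactive *Tert*, contributed 2 livers and 2 tumors (TCi-HCA984 and TCi-HCC981). HCC stands for hepatocellular carcinoma and HCA for hepatocellular adenoma. These names are those of the study, although its histological diagnosis for the mouse of T-HCC663 is adenoma. Every mouse thus carried 1 of these p21-driven alleles and a tumor, and no liver of a wild-type or tumor-free mouse was analysed here. The driver class of a tumor is taken from the exome sequencing of the study and not from the sample labels. T-HCC662 and T-HCC663 carried a *Ctnnb1* mutation (*Ctnnb1* encodes β-catenin), T-HCC941 an *Egfr* and TCi-HCC981 an *Hras* mutation (the MAPK class), and T-HCA992 and TCi-HCA984 neither. The last 4 are called the other tumors.

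Albumin is the main protein of blood plasma, which it helps to keep in the vessels while carrying fatty acids, hormones, and drugs. α-Fetoprotein, encoded by *Afp*, takes its place in the fetus, is shut off in liver after birth, and is used in the clinic as a serum marker of liver cancer. Afamin, from *Afm*, binds vitamin E and carries lipid-modified Wnt proteins, and the product of *Gc*, the vitamin D-binding protein, carries vitamin D metabolites and clears actin from plasma. The 4 genes descend from a common ancestor by duplication and are transcribed mainly in hepatocytes, under factors such as HNF1, C/EBP, and the FOXA proteins.

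The family lies on chromosome 5 of the mouse. In the GENCODE annotation of GRCm38, the build matching mm10, *Alb* (ENSMUSG00000029368.10) spans chr5:90460897-90476602, *Afp* (ENSMUSG00000054932.6) chr5:90490737-90508907, and *Afm* (ENSMUSG00000029369.17) chr5:90518932-90553543, all on the plus strand. The gap from *Alb* to *Afp* is 14134 bases and that from *Afp* to *Afm* 10024 bases. *Gc* stands apart on the minus strand at chr5:89417522-89457898, with 1002998 bases and several unrelated genes between it and *Alb*. All 4 RefSeq promoter windows (GRCm38.p6, 250 bases before the annotated start) held the letters GTTAATNAT, an HNF1-like motif, read on both strands. These letters were set after the sequences had been seen, and 242 of 32851 RefSeq windows of this length (0.737%) hold them. The shorter GTTAAT, which lies within it, occurs in 6.43% of windows. The 30 bases around the match are shown, 5′ to 3′ on the strand of the gene and with the match in capitals, because each of the 4 promoters holds it. CCAAT, which 33.8% of windows hold, was found in all 4 as well.
Alb: ggtaagtatgGTTAATGATctacagttatt
Afp: cccctgctctGTTAATTATtggcaaattgc
Afm: ttttcccctaGTTAATAATtacctagaaat
Gc: cagtgacaaaGTTAATGATtaaaacctccc
These windows are chr5:90460828-90460857, chr5:90490599-90490628, and chr5:90518801-90518830 on the plus strand and chr5:89457931-89457960 on the minus strand, all upstream of the gene. Counted from the RefSeq starts, the match began 32 bases before *Alb*, 52 before *Gc*, 105 before *Afp*, and 138 before *Afm*. For *Alb*, *Afp*, and *Afm* these starts differ from the GENCODE starts given above. Their promoter windows end at chr5:90460869, chr5:90490713, and chr5:90518948, and that of *Afm* thus runs into the GENCODE span of the gene. The match is a description of the letters, and binding of a factor was not measured. TATAAA was found in the windows of *Afp* and *Afm* alone, 7 and 30 bases before the RefSeq start, and in 12.4% of all windows.

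Between 14571716 and 26170661 reads were counted per library, so that even *Afp* in liver rested on 32 to 135 reads. The 10 most counted genes took from 10.2% of the reads in T-HCC663 to 21.7% in T-HCC941. *Tert* itself was at 10.5 to 17.3 CPM (counts per 1000000 after TMM scaling) in livers and 4.69 to 26.1 CPM in tumors, a count in which the native gene and the knocked-in allele cannot be told apart. The hepatocyte markers (6 of 6 present) summed to 17117 to 28713 CPM in livers and 12426 to 24999 CPM in tumors, so the defining markers of the labelled tissue were present. Among the other cell types, the 5 bile duct markers summed to 50.9 to 134 CPM in livers but 413 CPM in T-HCC941, 1064 CPM in T-HCA992, and 285 CPM in TCi-HCA984. Those 3 sums were mostly *Spp1* (osteopontin), at 383, 1037, and 261 CPM, and in the other tumors against livers 2 of the 5 markers had positive and 3 negative log2 fold changes. The red cell markers summed to at most 802 CPM in livers and reached 1646 CPM in T-HCC663 and, in TCi-HCC981, 882. T cell markers reached 23.0 CPM in T-HCC941, 18.9 in T-HCC663, and 11.0 in TCi-HCC981 against at most 7.84 CPM in livers. Stellate cell markers reached 139 CPM in T-HCA992 and 82.1 in TCi-HCA984 against at most 77.5 CPM. Endothelial markers reached 226 CPM in TCi-HCC981 and 179 in T-HCA992 against at most 160 CPM. Macrophage markers summed to 833 CPM in the liver paired with TCi-HCC981, 83.9 to 183 CPM in the remaining livers, and 60.7 to 527 CPM in tumors. None of the listed markers was at 0 in every library, and their part in the results was not tested. In bulk tissue, fewer cells of a type and less RNA per cell cannot be told apart, and this holds for every level given here. Mice are the replicates, and SD is the spread between them.

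In non-tumoral liver the members differed in level by orders of magnitude. Per length, as CPM per kilobase of merged exons, the means ± SD over the 6 livers were 9005 ± 3350 for *Alb*, 1960 ± 358 for *Gc*, 58.2 ± 12.0 for *Afm*, and 1.34 ± 0.556 for *Afp*. The order *Alb*, *Gc*, *Afm*, *Afp* held in 12 of 12 libraries, tumors included. Together the 4 genes took 1.14% to 3.60% of the reads in livers. They took 8.11% in T-HCC941, 7.95% in T-HCA992, 6.85% in TCi-HCC981, and 5.21% in TCi-HCA984. In T-HCC662 and T-HCC663, by contrast, the share was 1.92% and 0.964%, the latter below every liver.

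**Figure D1:**
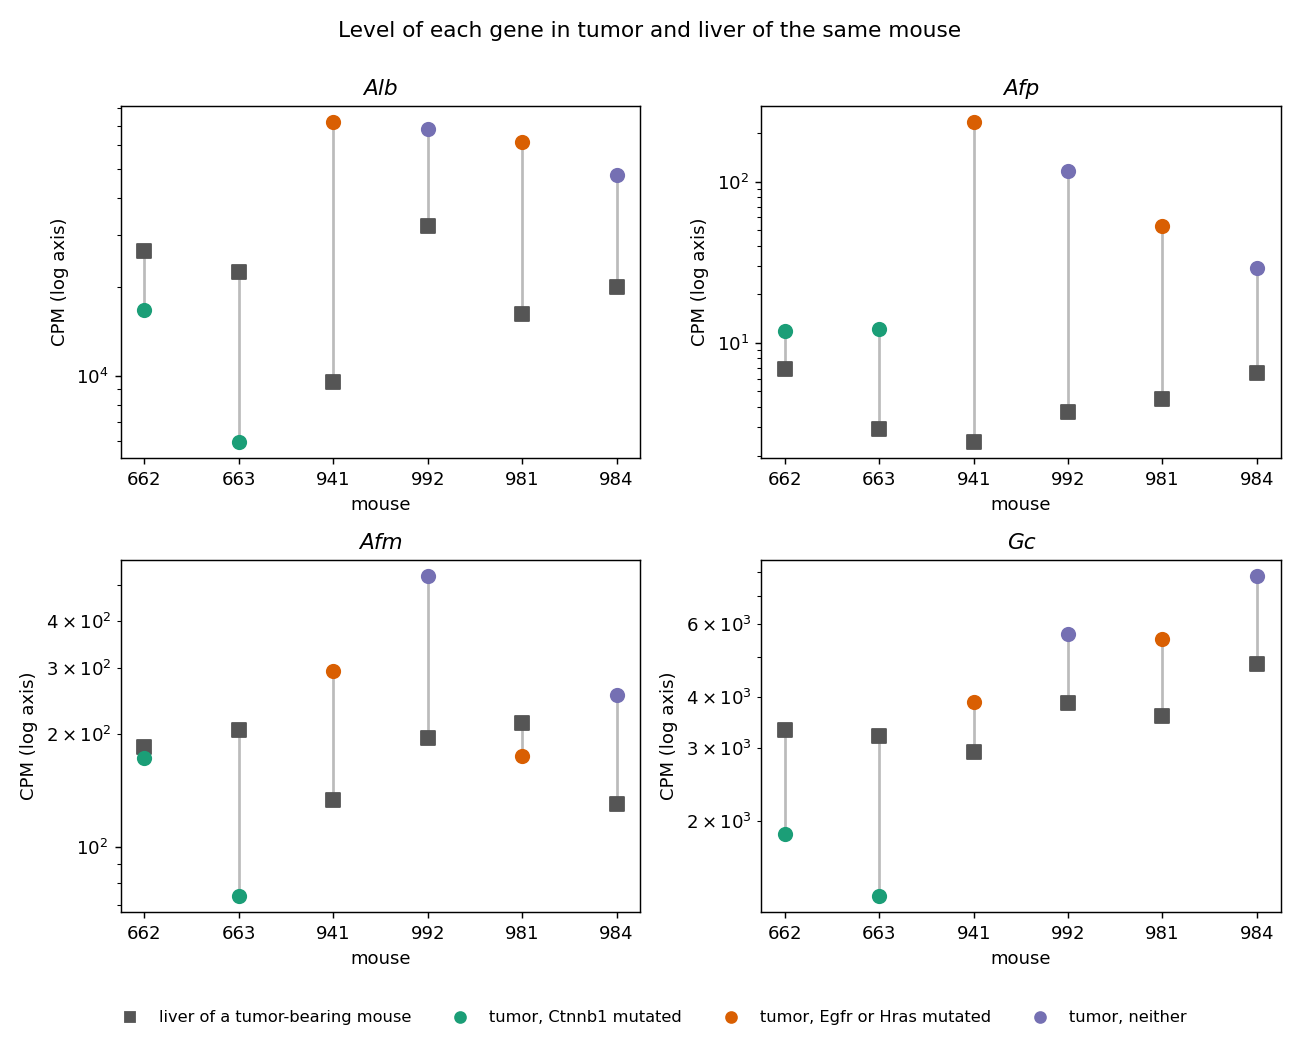
CPM of each gene (log axis) in the liver (square) and the tumor (circle) of each mouse, joined by a line and colored by driver class. The liver joined to T-HCC662 was paired by elimination. *Afp* was higher in all 6 tumors than in any liver, whereas *Alb* and *Gc* were lower than in the own liver in both *Ctnnb1* tumors and higher in the other 4. Over all genes tested, 5.11% did not overlap between tumors and livers, in either direction.

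*Afp*, the fetal member, was the one gene of the family that lay above every liver in all 6 tumors. It was at 2.43 CPM in the lowest liver, at a median of 4.10 CPM, and at 6.92 CPM in the highest (4.50 ± 1.87 CPM, SD, n = 6). The tumors had 11.9 CPM in T-HCC662, 12.2 in T-HCC663, 28.9 in TCi-HCA984, 52.9 in TCi-HCC981, 116 in T-HCA992, and 235 in T-HCC941. The groups did not overlap, which held for 5.11% of the 13822 genes tested, in either direction. The tumors were spread over a 19.7-fold range, with both *Ctnnb1* tumors at its bottom. The log2 fold change of tumors against livers was 4.06 (SE 0.736, edgeR adjusted p = 0.00472). In the whole comparison 10.7% of the 13822 genes tested were called. Of the members tested here, which leave out *Alb*, only *Afp* was called. Without T-HCC941, the highest tumor, the log2 fold change was 3.30 and still called.

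Set against the liver of the same mouse, *Afp* was 96.8-fold higher in T-HCC941, 31.3-fold in T-HCA992, and 11.8-fold in TCi-HCC981. It was 4.41-fold higher in TCi-HCA984, 4.20-fold in T-HCC663, and 1.72-fold in T-HCC662. All 6 differences were thus positive, as they were for 1525 of 13822 genes (11%). Ranked by the difference on the log2(CPM + 1) scale, *Afp* stood at place 17 from the top in T-HCC941 and 20 in T-HCA992, but at 2132 in T-HCC662. The smallest difference, 0.71 in T-HCC662, compares with an SD of 0.49 between livers. With the mean of the 6 livers as the reference, the log2 difference went from 0.71 to 1.31 in T-HCC662, from 1.99 to 2.51 in TCi-HCA984, and from 6.11 to 5.49 in T-HCC941, whose own liver had the lowest *Afp*. The liver paired with T-HCC662 had the highest *Afp* of the livers, and it was assigned to that mouse by elimination of the animal numbers. By the names of the tumors, adenoma and carcinoma were mixed along the order, with T-HCA992 above TCi-HCC981. Even in T-HCC941, *Afp* made up 0.307% of the reads of the family and *Alb* 94.2%.

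*Alb* lay on opposite sides of the own liver in the driver classes. It was at 9546 CPM in the lowest liver (that of the mouse of T-HCC941), at a median of 21240 CPM, and at 31956 CPM in the highest (that of T-HCA992). T-HCC663 and T-HCC662 had 5982 and 16621 CPM, and the other tumors had 47664 (TCi-HCA984), 61590 (TCi-HCC981), 68209 (T-HCA992), and 72143 CPM (T-HCC941). The other tumors all lay above every liver, T-HCC662 lay within the livers, and T-HCC663 lay below them. The other tumors and the livers did not overlap in 16.3% of the 15182 genes tested, in either direction. As a share of all reads, *Alb* took 4.45% to 7.64% in the other tumors, where it ranked first, against 0.864% to 3.19% in livers and 1.71% and 0.781% in the *Ctnnb1* tumors, where it ranked at places 3 and 6. *Apoe*, which encodes apolipoprotein E, was the most counted gene in 5 livers and in both *Ctnnb1* tumors, and *Hp*, which encodes haptoglobin, in the liver paired with TCi-HCA984.

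Against the own liver, *Alb* was 7.56-fold higher in T-HCC941, 3.82-fold in TCi-HCC981, 2.39-fold in TCi-HCA984, and 2.13-fold in T-HCA992. *Alb* was 1.59-fold lower in T-HCC662 and 3.76-fold lower in T-HCC663. In T-HCC662 the log2 difference was -0.67, beside an SD of 0.61 between livers. It came to -0.25 when the mean of the 6 livers was the reference. The value of T-HCC941 rests in part on a low liver, the lowest of the 6, and its log2 difference of 2.92 came to 1.87 when the mean of the 6 livers was the reference. Over all 6 tumors the log2 fold change was 1.10 (SE 0.602). The tumors just inside and just outside the rule on *Alb*, namely TCi-HCA984, where it led with 839263 reads, and T-HCC662, where it ranked at place 3 with 368859 reads, were at 47664 and 16621 CPM.

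*Gc* followed the same split within a narrower range. The livers had 2931 CPM at the lowest, a median of 3455, and 4796 at the highest, with the smallest spread of the 4 members (18.3% of the mean). T-HCC663 and T-HCC662 had 1315 and 1856 CPM, below every liver. T-HCC941 had 3890 CPM, within the livers, and TCi-HCC981, T-HCA992, and TCi-HCA984 had 5505, 5676, and 7835 CPM, above them. Against the own liver it was 1.79-fold and 2.44-fold lower in T-HCC662 and T-HCC663 and 1.33-fold to 1.63-fold higher in the other 4. These opposite directions left a log2 fold change over all tumors of 0.26 (SE 0.414, edgeR adjusted p = 0.735).

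*Afm* showed the same tendency with exceptions. Its livers ran from 130 CPM through a median of 190 to 214 CPM. The tumors had 73.8 CPM in T-HCC663, 172 in T-HCC662, 175 in TCi-HCC981, 254 in TCi-HCA984, 295 in T-HCC941, and 527 in T-HCA992. T-HCC663 lay below all livers, T-HCC662 and TCi-HCC981 within them, and 3 tumors above. TCi-HCC981 was the one other tumor with less *Afm* than its own liver (1.22-fold lower), although its *Alb* was 3.82-fold higher. The log2 fold change over all tumors was 0.49 (SE 0.366, edgeR adjusted p = 0.429).

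**Figure D2:**
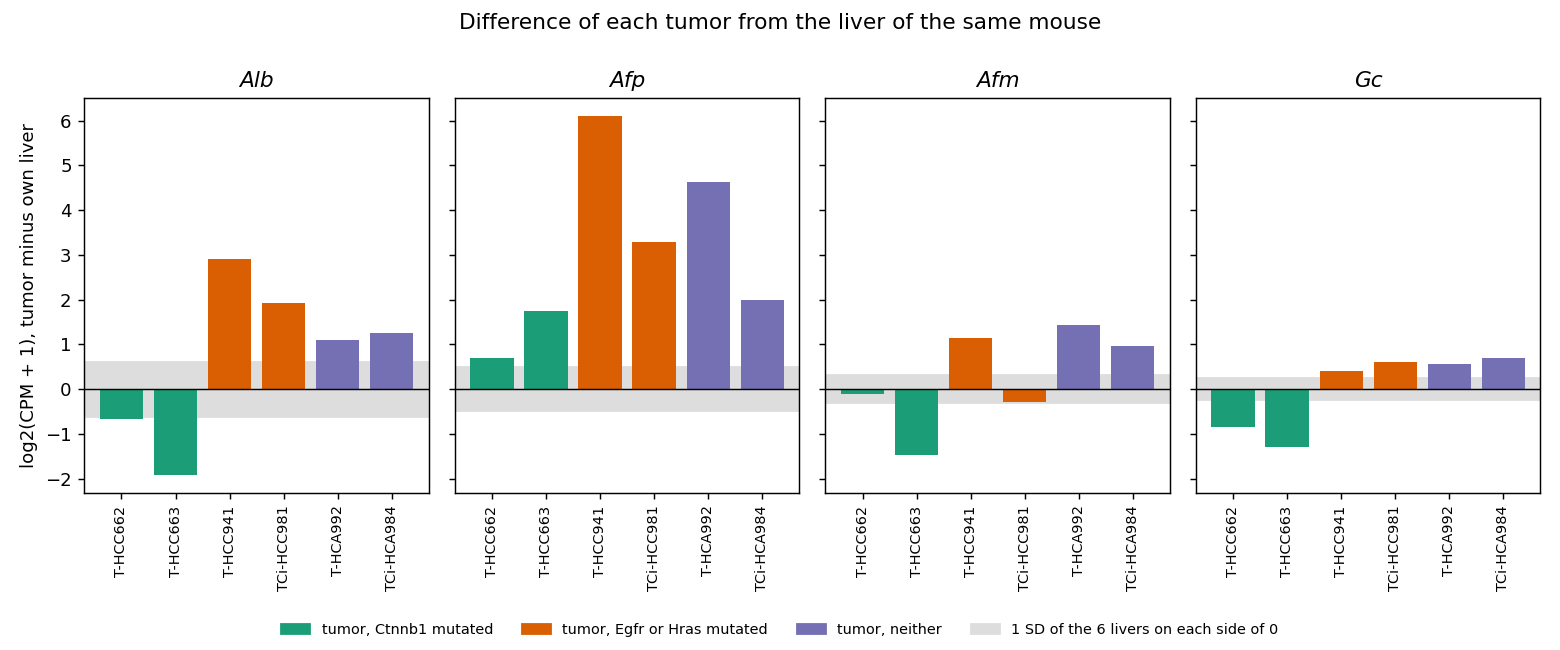
Difference in log2(CPM + 1) between each tumor and the liver of the same mouse, by gene, with bars colored by driver class and a gray band of 1 SD of the 6 livers on each side of 0. The liver of T-HCC662 was paired by elimination. *Afp* was positive in 6 of 6 tumors, from 0.71 to 6.11, and *Alb* and *Gc* were negative in the 2 *Ctnnb1* tumors and positive in the other 4.

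The members also moved apart within a tumor. Reads of *Alb* per read of *Afp* numbered 3053 to 8629 in livers and 307 in T-HCC941, 491 in T-HCC663, and 589 in T-HCA992. The ratio was below that of every liver in 6 of 6 tumors, the highest being 1652 in TCi-HCA984. Reads of *Alb* per read of *Gc* were 3.26 to 8.29 in livers, and 8.96 in T-HCC662 and 4.55 in T-HCC663. They were 18.5 in T-HCC941, 12.0 in T-HCA992, 11.2 in TCi-HCC981, and 6.08 in TCi-HCA984. The ratio of *Alb* to *Gc* was thus above every liver in 3 of the 4 other tumors and, by a small margin, in T-HCC662.

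The class comparisons asked whether tumors with a *Ctnnb1* mutation differ from the rest. Against the other tumors, *Gc* was lower in the *Ctnnb1* tumors by 1.84 on the log2 scale (SE 0.398, edgeR adjusted p = 0.0153) and *Afp* by 3.09 (SE 0.725, edgeR adjusted p = 0.021). *Afm* differed by -1.31 (SE 0.42) and did not pass (edgeR adjusted p = 0.0609). The *Alb* difference of -2.47 is a description, since the gene was chosen on it. In this comparison 12.5% of the genes tested were called. All 4 members were lower in both *Ctnnb1* tumors than in any other tumor (for *Afm*, 172 against 175 CPM at the nearest), but 37.5% of the 15182 genes tested did not overlap between these 2 and 4 tumors, in either direction. With the mouse as a replicate block, which compares the differences from the own liver, neither call held, with adjusted p = 0.133 for *Gc* (log2 difference -1.63) and 0.206 for *Afp* (-2.85), and 441 in place of 1895 genes were called. Both calls were also lost without T-HCC662 (edgeR adjusted p = 0.0713 for *Gc* and 0.13 for *Afp*) or without T-HCC663 (0.102 and 0.107).

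The 2 classes were then set against the same 6 livers, which both comparisons share. In the other tumors *Afp* was higher by 4.48 (SE 0.494, edgeR adjusted p = 0.000204), in a comparison that called 22.8% of the genes, and by 3.76 without T-HCC941. *Afm* differed by 0.76 (SE 0.291, edgeR adjusted p = 0.0799) and *Gc* by 0.63 (SE 0.268, edgeR adjusted p = 0.115), and neither passed. The *Alb* difference was 1.55, again a description. In the *Ctnnb1* tumors, where 8.2% of the genes were called, no member passed. *Afp* differed by 1.39 (SE 0.56, edgeR adjusted p = 0.157), *Gc* by -1.22 (SE 0.37, edgeR adjusted p = 0.0672), *Alb* by -0.92 (SE 0.606, edgeR adjusted p = 0.395), and *Afm* by -0.55 (SE 0.385, edgeR adjusted p = 0.427). Either tumor moved these values: *Alb* was at -1.85 without T-HCC662 and -0.35 without T-HCC663, and *Afm* at -1.29 and -0.05. DESeq2 called *Gc* in this comparison (adjusted p = 0.000232).

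**Figure D3:**
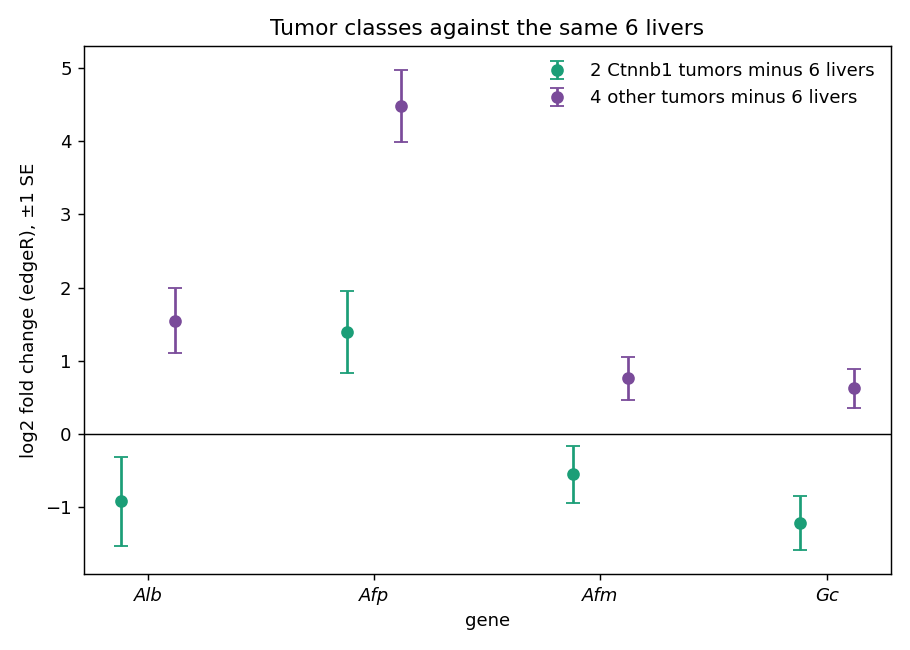
Log2 fold change with its standard error (edgeR) of each gene in the 2 *Ctnnb1* tumors and in the 4 other tumors, both against the same 6 livers. The *Afp* point of the other tumors is the highest, at 4.48, and *Alb*, *Gc*, and *Afm* lie below 0 in the *Ctnnb1* tumors and above 0 in the others.

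Within the other tumors, the MAPK class (T-HCC941 and TCi-HCC981) was set against the tumors with neither mutation, and no member tested passed. The log2 differences, MAPK minus neither, were 0.96 for *Afp* (SE 0.712, edgeR adjusted p = 0.686), -0.76 for *Afm* (SE 0.458, 0.633), and -0.55 for *Gc* (SE 0.421, 0.693). For *Alb* the difference was 0.18 (SE 0.701). The *Afp* levels interleaved, at 235 and 52.9 CPM in the one class and 116 and 28.9 CPM in the other. With 2 tumors against 2, 0% of genes were called by edgeR (1331 at an unadjusted p under 0.05, and 103 by DESeq2), so the SE given here bound what could have been seen.

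By genotype, *Afp* was 93.7 ± 106 CPM in the 4 p21+/Tert tumors against 3.99 ± 2.03 CPM in their livers (SD). The log2 fold change was 4.53 (SE 0.937, edgeR adjusted p = 0.0199) in a comparison that called 6.49% of genes. With the mouse as a replicate block it was 3.57 with an adjusted p of 0.0796, and leaving out any 1 of the 4 livers also ended the call (edgeR adjusted p from 0.0519 to 0.0691). In the 2 p21+/TertCi tumors *Afp* was 40.9 ± 17.0 CPM against 5.52 ± 1.45 CPM in livers, a log2 fold change of 2.87 (SE 1.224, edgeR adjusted p = 0.446). There, 0% of genes were called by edgeR (1618 at an unadjusted p under 0.05, and 366 by DESeq2). *Afm* and *Gc* passed in neither genotype.

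The difference between the genotypes was tested itself, as an interaction. For *Afp* it was -1.66 (SE 1.425), for *Gc* 0.73 (SE 0.798), and for *Afm* -0.25 (SE 0.824), all with an edgeR adjusted p of 1. The value of *Alb* was 0.74 (SE 1.327). Of all genes 0% were called (556 at an unadjusted p under 0.05, and 14 by DESeq2). Both *Ctnnb1* tumors were of p21+/Tert mice, so genotype and driver class cannot be fully told apart. In livers alone, p21+/TertCi minus p21+/Tert, the differences were -0.30 for *Alb* (SE 0.948), 0.48 for *Afp* (SE 1.006), -0.05 for *Afm* (SE 0.584), and 0.35 for *Gc* (SE 0.556), with edgeR adjusted p-values from 0.98 to 1. Again 0% of genes were called (756 at an unadjusted p under 0.05, and 37 by DESeq2).

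The neighbours of the family on chromosome 5 were followed as well. Of 29 other genes counted within 1000000 bases of the span from *Gc* to *Afm*, 20 were tested, and 2 rose and 1 fell in tumors against livers, beside the 10.7% called over all genes. Those that rose encode ligands of the EGF receptor, *Btc* (betacellulin, log2 fold change 2.80, SE 0.417, edgeR adjusted p = 0.00188) and *Areg* (amphiregulin). *Areg* was at most 0.194 CPM in livers and 1.36 CPM in tumors, so that it passed the filter on low counts through the tumors, and its call rests on few reads. *Rufy3* fell by 0.69 (SE 0.192, edgeR adjusted p = 0.0356). The genes on either side of the *Alb*, *Afp*, and *Afm* cluster, *Ankrd17* and *Gm9958* before it and *5830473C10Rik* after it, were not called. Between *Ctnnb1* and other tumors 2 of 23 neighbours tested were called, *Ankrd17* (-0.84, SE 0.215, edgeR adjusted p = 0.0285) and *Rufy3* (0.72, SE 0.198, edgeR adjusted p = 0.0362), in opposite directions, beside 12.5% over all genes. In *Ctnnb1* tumors against livers 3 of 23 rose and 1 fell, beside 8.2% of all genes called. In the other tumors against livers 4 of 23 rose and 1 fell, beside 22.8%.

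Copy number was not analysed here, and the RNA of the whole chromosome is given as a value beside the family's. The median log2 difference from the own liver over 854 genes of chromosome 5 was 0.20 in T-HCC941, -0.16 in TCi-HCC981, and between -0.03 and 0.03 in the other 4 tumors. Over the 20 tested neighbours it was 0.44 in T-HCC941, 0.24 in TCi-HCC981, and 0.28 in TCi-HCA984. It was 0.01 in T-HCA992, -0.06 in T-HCC663, and -0.2 in T-HCC662. In the same order of tumors, the *Alb* differences were 2.92, 1.93, 1.26, 1.09, -1.91, and -0.67. The part of these medians in the *Alb* differences was not tested.

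**Figure D4:**
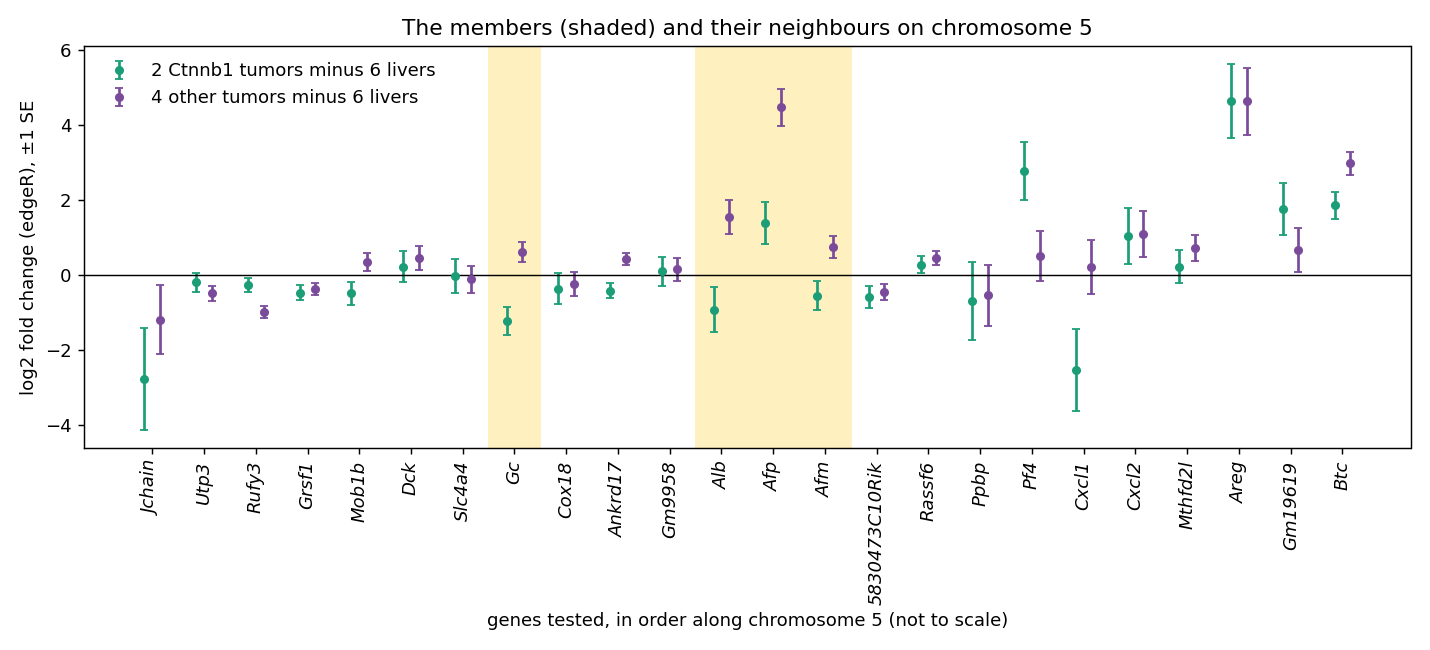
Log2 fold change with its standard error (edgeR) of the members (shaded) and neighbours along chromosome 5, for the 2 *Ctnnb1* and the 4 other tumors against the same 6 livers. The neighbours drawn are the 20 tested over all tumors against livers. *Cxcl3* (5.34 in the other tumors), *Cxcl5* (3.79), and *Adamts3* (-6.13 in the *Ctnnb1* tumors) were tested by class but are not drawn. *Afp* reaches 4.48 in the other tumors, where *5830473C10Rik* is at -0.45 and *Ankrd17* at 0.43. *Areg*, of few reads, reaches 4.64 there.

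Of 20 genes for factors known to bind the *Alb* or *Afp* promoter or enhancers, all tested, 0 rose and 3 fell in tumors against livers, beside 10.7% of all genes called, with a list median of -0.53 beside 0.01 over all genes (edgeR). They were *Nfix*, a nuclear factor I gene (-1.25, SE 0.209, edgeR adjusted p = 0.00331), *Cebpa*, which encodes C/EBPα (-0.80, SE 0.2, edgeR adjusted p = 0.0241), and *Nfia* (-0.85, SE 0.236, edgeR adjusted p = 0.0368). *Nfix* was 84.5 to 149 CPM in livers and 29.1 to 67.1 CPM in tumors, without overlap, and *Cebpa* likewise was 599 to 918 against 305 to 492 CPM. Tumors and livers did not overlap in 5.11% of all genes tested. Between *Ctnnb1* and other tumors 1 of the 20 was called, beside 12.5% of all genes. It was *Nr5a2* (also known as LRH-1, -1.11, SE 0.289, edgeR adjusted p = 0.0308), which was chosen for mention after its value was seen.

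Of 5 genes listed as repressors of *Afp*, 1 fell in tumors against livers, where 10.7% of all genes were called, and 4 did not pass. *Nr2f2*, which encodes the nuclear receptor COUP-TFII, was 42.7 to 60.2 CPM in livers and 23.1 to 35.4 CPM in tumors (log2 fold change -0.76, SE 0.146, edgeR adjusted p = 0.00636). In the other tumors against livers, 2 of the 5 fell, beside 22.8% of all genes called, the second being *Zbtb20* (-1.09, SE 0.332, edgeR adjusted p = 0.0358), a repressor of *Afp* after birth that was named after its value was seen. It was 2.88 to 6.55 CPM in livers, 1.19 to 3.63 CPM in the other tumors, and 3.55 to 3.88 CPM in the *Ctnnb1* tumors.

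Other genes active in fetal liver were followed beside *Afp*. Of 9 such genes 6 were tested, and all 6 rose in tumors against livers, where 10.7% of all genes were called. *Dlk1*, *Igf2bp1*, and *Lin28b* were too low to be tested. *Dlk1* was at most 6.87 CPM in tumors and 7.90 CPM in livers. In *Ctnnb1* tumors against livers 3 of 7 tested were called, beside 8.2% of all genes, and *Gpc3* there was 0.0451 and 0.526 CPM against 0.291 to 1.61 CPM in livers. *Scd2*, a fatty acid desaturase gene, rose by 5.53 (SE 0.915, edgeR adjusted p = 0.00312). *Lpl*, which encodes lipoprotein lipase, rose by 3.57 (SE 0.641, edgeR adjusted p = 0.0045). The imprinted RNA *H19* was called higher, at 4.21 to 2076 CPM in tumors against 0.084 to 0.967 CPM in livers. *Igf2*, a fetal growth factor gene, was called higher too, at 1.01 to 688 CPM in tumors. Its levels in 2 tumors (1.01 CPM in T-HCC663 and 1.08 in TCi-HCA984) were within the livers, which reached 1.13 CPM. Each liver held 2 to 15 reads of *H19* and 4 to 21 of *Igf2*, so both passed the filter on low counts through the tumors and no fold is given. *Gpc3* was also low in livers, at 6 to 30 reads, and its fold is not given either. The summed level of the list was 17.9 to 133 CPM in livers, 681 and 484 CPM in T-HCC662 and T-HCC663, 634 in TCi-HCA984, 1359 in T-HCA992, 2779 in TCi-HCC981, and 4522 in T-HCC941. T-HCC941 was the highest tumor and both *Ctnnb1* tumors were among the lowest 3, as for *Afp*, although *Afp* was higher in T-HCA992 than in TCi-HCC981. The list was tested only where its genes passed the filter on low counts, so the 6 of 6 is no independent support.

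Of 30 listed genes for other proteins that liver secretes into plasma, 0 were called in tumors against livers (edgeR, list median -0.40), beside 10.7% of all genes. Between *Ctnnb1* and other tumors 7 fell and 23 did not pass, where 12.5% of all genes were called, with a median of -1.17 beside -0.004 over all genes. In that comparison *Alb* stood at -2.47, lower than *Itih2* (-1.57), *Trf* (transferrin, -1.80), *Ahsg* (-2.05), and *Kng1* (-2.24), and above the fibrinogen chains *Fga* (-3.08) and *Fgg* (-2.90). *Serpind1*, with -1.35, completes the 7, which were named after their values were seen. In the other tumors against livers the list median was -0.20, and 4 of 30 were called, *Trf* (1.26), *Kng1* (0.90), and *Itih2* (0.88) higher and *Apoa2* (-1.19) lower, beside 22.8% of all genes.

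Hepatocytes divide labor along the lobule, and *Alb* is transcribed more strongly near the portal vein. The 9 periportal genes fell in 7 cases in *Ctnnb1* against other tumors (median -4.77), where 12.5% of all genes were called. The 10 pericentral genes, which β-catenin maintains near the central vein, rose there in 10 cases (median 4.72). In the other tumors against livers 10 of 10 pericentral genes fell (median -2.57), and of the periportal genes 1 rose and 3 fell, beside 22.8% of all genes called. In tumors against livers, 2 periportal genes fell, *Ass1* (-2.82, SE 0.407, edgeR adjusted p = 0.00158) and *Pck1* (-2.08, SE 0.615, edgeR adjusted p = 0.0463), and 0 pericentral genes were called, beside 10.7% of all genes. The summed pericentral level was 27551 and 22533 CPM in T-HCC662 and T-HCC663 and 508 to 2695 CPM in the other tumors, against 6668 to 10786 CPM in livers.

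Receptors and enzymes that handle albumin or vitamin D were also measured. Of 13 listed genes 8 were tested in tumors against livers and 0 were called (edgeR), beside 10.7% of all genes. In the other tumors against livers 11 were tested and 4 called, beside 22.8% of all genes. *Vdr*, the vitamin D receptor gene, was called higher, but it was at 0 reads in 4 of 6 livers, at most 0.420 CPM in the others and 0.341 to 3.46 CPM in the other tumors, so it passed the filter through the tumors and no fold is given. *Cyp27a1*, whose enzyme hydroxylates sterols and vitamin D, fell (-2.04, SE 0.311, edgeR adjusted p = 0.00117), as did *Fcgrt*, whose product rescues albumin from degradation (-0.73, SE 0.153, edgeR adjusted p = 0.00653), and *Cyp2r1*, a vitamin D 25-hydroxylase gene (-0.60, SE 0.197, edgeR adjusted p = 0.0461). These 4 were named after their values were seen. In *Ctnnb1* against other tumors 3 of 11 rose, *Cyp27a1* (1.99), *Fcgrt* (1.02), and *Gsn* (gelsolin, 3.17), beside 12.5% of all genes. The *Gsn* value rests on 1 library, with 187 CPM in T-HCC663, 4.55 CPM in T-HCC662, and 6.76 to 12.1 CPM in the other tumors.

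Finally, the profiles of the members over the 12 libraries were compared with those of 13381 genes of at least 1 CPM on average. Likeness is the root mean square difference of centred log2(CPM + 1) values, where 0 is an equal shape. Within the family *Afm* and *Gc* were closest (0.56), followed by *Alb* with *Afm* (0.67) and with *Gc* (0.70), and *Afp* was 1.36 or more from each. The most like genes were *Plxna2* (0.39), *Mrgpre* (0.45), and *Prkca* (0.47) for *Alb*, and *Gdpd1* (0.53), *Tceal5* (0.64), and *Rasal1* (0.66) for *Afp*. For *Afm* they were *Htra1* (0.32), *Zfp791* (0.35), and *Afap1* (0.35), and for *Gc* they were *Ldlrad3* (0.21), *Cfi* (0.22), and *Asph* (0.26). *Cfi*, which encodes complement factor I, another plasma protein of the liver, averaged 587 CPM in livers, 260 CPM in *Ctnnb1* tumors, and 967 CPM in the other tumors. All points share the same 12 libraries, so these values are descriptions.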

How the data were processed

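The authors sequenced poly(A) RNA of tumors and livers, aligned the reads with Subread to mm10, and deposited whole-number read counts per gene for 24421 symbols made with featureCounts 1.6.4, without normalization. No mitochondrial gene is among the symbols. How multi-mapping reads and strand were handled was not given in the sources used here, and the sequencing run of each sample, for which the study corrected, is not in the labels. Groups follow the genotype and tissue labels. The number in the label of 1 p21+/Tert liver matches no animal of the study, so this liver was paired with T-HCC662 by elimination.

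Counts were scaled by TMM in edgeR 4.0.16 (R 4.3.3), filtered with filterByExpr, and tested with its quasi-likelihood test over all genes, with Benjamini-Hochberg adjustment at 0.05, on all 12 libraries in 1 model of tissue, of genotype and tissue, or of driver class. The SE is the size of the log2 fold change over the square root of F. Differences from the own liver use log2(CPM + 1). The members and lists were chosen with earlier results of these data known. Named genes are the members, the 3 most like genes of each, the locus genes, and per list up to 4 called in tumors against livers, and *Nr5a2*, *Zbtb20*, and the plasma and carrier genes called in other comparisons were also named, after their values were seen. Tumor and liver of a mouse are pairs, and their deviations from group means correlated at 0.042 to 0.547 (median 0.317) over 13822 genes. For unpaired tumors and livers of a genotype the median was -0.073. Deviations from a mean cancel out within a group, which lowers the unpaired values by construction. The pairs of TCi-HCC981 and TCi-HCA984 mirror each other and so share the value 0.547. These correlations are thus no test of the pairing. Alternatives were DESeq2 1.42.0, RLE or no scaling factors, no filter on counts, each library left out, both libraries of the mouse of T-HCC662 left out, the mouse as a block, the tumors alone, a pseudocount of 0.1 CPM, the mean liver as reference, a total without the 10 most counted genes, and the longest transcript as length. The fits were tested on simulated data.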

Additional observations from a re-analysis of the deposited data

Results flagged for a closer look

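*Alb* and *Gc* moved one way in each *Ctnnb1* tumor and the opposite way in each other tumor when set against the liver of the same mouse. The share of all genes with this pattern was not counted. By level, 37.5% of the genes tested did not overlap between the *Ctnnb1* and the other tumors. The liver of T-HCC662 was paired by elimination. For *Alb* in T-HCC662 the log2 difference was -0.67, beside an SD of 0.61 between livers, and -0.25 with the mean liver as reference. The mean log2 difference of *Alb* was -1.29 in the 2 *Ctnnb1* tumors and 1.80 in the 4 other tumors. *Alb* was chosen for this pattern, and its difference was not tested. For *Gc* the means were -1.06 and 0.57, and the difference between the classes did not pass with the mouse as a replicate block (edgeR adjusted p = 0.133). In no group of 4 to 6 libraries did a single library stand apart for any member by Dixon's ratio, over 20 groups tried.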

How the results depend on the processing

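The rise of *Afp* in tumors against livers, and in the other tumors against livers, was called under every alternative run. Of 163 refits for each gene, direction and side of the threshold (for *Alb*, where it was not tested, direction and size within 1 SD of the livers) stayed for *Alb* in 158, *Afp* in 152, *Afm* in 150, and *Gc* in 150. The causes were not tested.

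With the mouse as a replicate block, *Ctnnb1* against other tumors called 441 genes in place of 1895, with log2 differences of -3.09 for *Alb*, -2.85 for *Afp*, and -1.63 for *Gc*, the last 2 no longer called. The *Afp* value of p21+/Tert tumors was 3.57 and no longer called, the uncalled *Afm* value of the genotype interaction turned to 0.066, the untested *Alb* of MAPK against neither was 1.22, and no other call of a member changed. *Ctnnb1* against other tumors with the 6 tumors alone called 839 genes, with -3.07 for *Afp* and -1.82 for *Gc*, both uncalled. Without both libraries of the mouse of T-HCC662 it called 330 genes, with -3.40 for *Alb*, -3.08 for *Afp*, and -2.12 for *Gc*, the last 2 uncalled, and 303 genes were called in p21+/Tert tumors, 245 in *Ctnnb1* tumors against livers, and 1 in MAPK tumors against those with neither. *Gc* in p21+/Tert tumors turned to 0.11.

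DESeq2 called 2677 genes in tumors against livers, 2088 in p21+/Tert tumors, 366 in p21+/TertCi tumors, 14 in the interaction, 37 between livers, 3081 in *Ctnnb1* against other tumors, 103 in MAPK against neither, and 2109 in *Ctnnb1* tumors against livers. It called *Afm* in *Ctnnb1* against other tumors (-1.32) and in other tumors against livers (0.78), and *Gc* in *Ctnnb1* tumors (-1.20) and other tumors (0.64) against livers. Raw library sizes called 1904 genes in *Ctnnb1* tumors against livers and *Gc* in other tumors against livers (0.74), and turned the uncalled *Gc* of p21+/Tert tumors to 0.15, *Afm* between livers to 0.031, and *Afm* of T-HCC662 against its own liver to 0.11. The mean liver as reference turned *Afm* in TCi-HCC981 to 0.014. In p21+/TertCi tumors 1 gene was called with RLE factors, 1 with raw library sizes, and 2 without a filter.

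With each library left out in turn, genes called ranged from 863 (without the liver paired with T-HCC662; 942 without T-HCC941) to 1988 in tumors against livers, from 240 (same liver) to 1192 in p21+/Tert tumors, from 0 to 7 in p21+/TertCi tumors, from 437 (without T-HCC662) to 2121 in *Ctnnb1* against other tumors, from 0 to 5 in MAPK against neither, from 410 (without T-HCC662) to 1329 in *Ctnnb1* tumors against livers, and from 1815 (without T-HCA992) to 3617 in other tumors against livers. Counts also moved by over 1.5 times without the liver paired with T-HCC663 (347) or T-HCC941 (424) or without T-HCC941 (587) in p21+/Tert tumors, without T-HCC663 (886), T-HCA992 (1020), or TCi-HCC981 (954) in *Ctnnb1* against other tumors, without T-HCC663 (595) in *Ctnnb1* tumors against livers, and without TCi-HCC981 (2239) in other tumors against livers. The log2 differences of *Ctnnb1* against other tumors ranged from -3.40 to -1.90 for *Alb*, -3.44 to -2.37 for *Afp*, -2.05 to -0.82 for *Afm* (called without TCi-HCA984), and -2.12 to -1.60 for *Gc*, and *Afm* in other tumors against livers from 0.46 to 0.97 (called without TCi-HCA984). In p21+/Tert tumors *Afp* ranged from 3.54 to 4.94, *Afm* from -0.017 to 0.88, and *Gc* from -0.52 to 0.19. *Afm* in p21+/TertCi tumors ranged from -0.007 to 0.70, in the interaction from -0.57 to 0.33, and between livers from -0.43 to 0.26. In MAPK against neither, *Alb* ranged from -0.052 to 0.45 and *Afp* from -0.47 (without T-HCC941) to 2.27.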
